A study of Homo sapiens with 18 samples.

Results

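The plasminogen activators and their inhibitors were examined in PANC-1 cells, an established line of human pancreatic ductal carcinoma, after knockdown or inhibition of the protein kinase PKR. The 6 genes are PLAU, which encodes urokinase (uPA), PLAUR (the urokinase receptor, uPAR), PLAT (tissue plasminogen activator, tPA), SERPINE2 (protease nexin-1), SERPINB2 (plasminogen activator inhibitor 2, PAI-2) and PRSS23, a secreted serine protease that is not itself a plasminogen activator. They were taken by gene symbol from 26485 genes, and all 6 were listed in both tables of the series. The genes were chosen by the PLAU values of these same libraries, which were already known to be lower with the PKR siRNAs and higher with the inhibitor. All comparisons of PLAU between groups are therefore given as a description without a test. The question asked of the data was whether the other genes of the system moved with it.

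The series holds 18 RNA-seq libraries, 3 per group, all from PANC-1 cells at 72 h. The labels number the runs without saying what a run was. In the first run the cells had received either a control siRNA or 1 of 2 siRNAs (PKR siRNA 1, PKR siRNA 2) directed at the mRNA of EIF2AK2, the gene for PKR. In the second run they had been given DMSO, the solvent, or C16, an inhibitor of the kinase activity of PKR, at 400 nM or 800 nM. The runs were normalized in separate tables, so the effect of the run cannot be told apart from that of siRNA against inhibitor, and every test was made within a table. No group lacked the PKR gene, only 1 cell line was used, and the sources used here do not say whether the 3 replicates of a group were separate cultures, so errors and p-values describe the spread between libraries, which may be technical.

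Plasminogen activators are serine proteases that cut the inactive precursor plasminogen into plasmin, a protease that dissolves fibrin and degrades matrix proteins. Urokinase does this at the cell surface, where it is held by its receptor, and tissue plasminogen activator does it mainly on fibrin. Serpins such as PAI-2 and protease nexin-1 trap the activators in inactive complexes, which receptors of the LDL receptor family take into the cell. In carcinoma cells the urokinase system is known for its part in invasion and in the remodelling of the matrix.

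The windows around the transcription start sites of PLAU, PRSS23 and PLAUR are shown because these 3 genes carry the results that follow. Each holds 250 bases before and 50 bases from the start site on, taken from RefSeq on GRCh38.p14 and written 5′ to 3′ along the gene. Windows were found for PLAU, PRSS23, PLAUR, SERPINE2 and SERPINB2, and where a gene had several, the one whose start lay closest to the gene start in the tables is shown. PLAU is on the plus strand at chr10:73910882-73911181, PRSS23 on the plus strand at chr11:86790821-86791120 and PLAUR on the minus strand at chr19:43670120-43670419.
PLAU: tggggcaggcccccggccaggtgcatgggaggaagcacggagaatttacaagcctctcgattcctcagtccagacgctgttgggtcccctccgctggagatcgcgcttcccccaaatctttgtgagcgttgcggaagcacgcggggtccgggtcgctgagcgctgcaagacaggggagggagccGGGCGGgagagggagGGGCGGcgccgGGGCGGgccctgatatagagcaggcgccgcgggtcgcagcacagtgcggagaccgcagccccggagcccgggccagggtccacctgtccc
PRSS23: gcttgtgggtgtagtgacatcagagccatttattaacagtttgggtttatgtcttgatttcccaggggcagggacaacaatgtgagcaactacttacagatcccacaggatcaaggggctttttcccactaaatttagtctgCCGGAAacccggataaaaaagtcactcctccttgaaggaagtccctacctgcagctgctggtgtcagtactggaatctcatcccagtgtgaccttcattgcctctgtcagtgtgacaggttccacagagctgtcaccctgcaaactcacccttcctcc
PLAUR: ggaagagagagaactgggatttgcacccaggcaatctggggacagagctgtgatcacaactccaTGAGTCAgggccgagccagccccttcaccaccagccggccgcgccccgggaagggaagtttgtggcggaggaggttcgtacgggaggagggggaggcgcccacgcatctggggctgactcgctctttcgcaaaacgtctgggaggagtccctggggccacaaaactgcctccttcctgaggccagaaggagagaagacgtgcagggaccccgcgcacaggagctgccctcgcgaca
Capitals mark every match on either strand to 5 short motifs, which were searched in all 35116 windows of the same length for comparison. An AP-1 site, searched as TGANTCA, was held by 7.71% of all windows. The PLAUR window held 1, at position −186 from the start site. An Sp1 box, searched as GGGCGG, was held by 45% of all windows, and the PLAU window held 3 of them, at −66, −51 and −40. An ETS core, searched as CCGGAA, was held by 17.2% of all windows. The PRSS23 window held 1, at −108. Another PRSS23 window, at chr11:86800292-86800591 and not shown, held no ETS core but had Sp1 boxes at −110, −106, −69, −65 and −42. A TATA box (TATAAA, in 11.5% of all windows) was not among the matches of these 3 windows. A TEAD site, searched as GGAATG and held by 14% of all windows, was not found in them either. A match describes the letters only, and neither binding nor promoter use was measured.

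Depth was 1512940 to 1873906 reads on genes in an siRNA library and 894145 to 1474308 in a C16 library. EIF2AK2 stood at 97.4 ± 5.21 (SD, n = 3) normalized counts in the control siRNA group. It stood at 11.1 ± 2.19 in the PKR siRNA 1 group and 8.65 ± 0.726 in the PKR siRNA 2 group. The gene reached the minimum mean of 10 normalized counts needed for a test mainly through the control group. Its siRNA values are therefore a description without a test. C16 against DMSO was not called for EIF2AK2 at either dose (limma, Benjamini-Hochberg adjusted p = 0.3503 at 400 nM and 0.9737 at 800 nM). Of 8 epithelial markers, 8 averaged 10 normalized counts or more over the siRNA libraries and 7 did so over the C16 libraries. Their summed level was 5652 to 5716 in the controls, 3271 to 3490 with PKR siRNA 1 and 9916 to 10560 with the second PKR siRNA. It was 7368 to 7766 with DMSO, 6212 to 6713 with 400 nM C16 and 5252 to 5790 with 800 nM C16. The sum is mostly keratin RNA, and the markers did not all move with it. With PKR siRNA 2, KRT8 rose from 2527 to 4925, whereas EPCAM fell from 102.6 to 10.7 and KRT7 from 18.2 to 4.65. At 800 nM, KRT8 fell from 4361 to 3378 and KRT19 from 1582 to 562.2, whereas EPCAM rose from 17.8 to 30.3. No endothelial (0 of 5), blood (0 of 6) or acinar and islet (0 of 6) marker reached a mean of 10 normalized counts, and PTPRC, CD3E and HBB were at 0 reads in every library. Of 7 fibroblast markers, 1 reached it over the siRNA libraries and 2 over the C16 libraries, COL1A2 and DCN were at 0 reads, and their summed level was 28.1 to 140.5 across the siRNA libraries and 83.0 to 187.3 across the C16 libraries. The part of these marker differences in the results below was not tested.

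PLAU and PRSS23 were the abundant members, and the other 4 were rare or undetected. Levels between genes were compared as normalized counts per kilobase of exon. Over the siRNA libraries the mean level was 273 per kilobase for PLAU, 103.4 for PRSS23, 3.84 for PLAUR, 1.08 for SERPINE2 and 0.426 for PLAT. The order was the same over the C16 libraries, at 183.7, 52.0, 3.67, 1.51 and 0.490. PLAU ranked 346 of the 18230 genes with a read among siRNA libraries and 351 of 17683 among C16 libraries. SERPINE2 and PLAT overlapped in the control siRNA, PKR siRNA 2 and DMSO libraries, and PLAUR and SERPINE2 overlapped with PKR siRNA 1, so the order of these neighbours was not resolved there. Without division by length PRSS23, whose exons span 11431 bases against 2690 for PLAU, had the higher mean, with PLAU at 0.622 times its level over the siRNA libraries and 0.831 times over the C16 libraries.

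SERPINB2 had 0 reads in all 18 libraries. A count of 0 allowed a level of up to 0.578 to 0.586 reads in every 1000000 reads on genes in the siRNA groups and 0.792 to 0.977 in the C16 groups, taking 3 reads over the 3 libraries of a group as the limit. These limits and the intervals on read ratios given below cover counting error only. PAI-2 RNA was thus not detectable at this depth in any group, and no comparison of it could be made.

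PLAU, on the plus strand of chromosome 10 (hg38, 73911104 to 73917500, 11 merged exons), was highest with control siRNA, at 1318 (replicate 1), 1130 (replicate 2) and 1229 (replicate 3) normalized counts. With PKR siRNA 1 the libraries stood at 602.0, 637.6 and 676.4, and with PKR siRNA 2 at 350.1, 334.5 and 331.0. The 3 groups did not overlap, and the means were 1226 ± 94.2, 638.7 ± 37.2 and 338.6 ± 10.2 (SD, n = 3). Of genes averaging 1 or more, 23.1% lay wholly below control with PKR siRNA 1 and 24.2% with PKR siRNA 2. Against control siRNA the fold was 0.522 for the first and 0.277 for the second PKR siRNA, on the scale of log2 (normalized count + 1) used for all folds given here. In bulk RNA a lower level per cell and fewer cells with the transcript cannot be told apart.

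PKR siRNA 2 gave less PLAU RNA than PKR siRNA 1, with a log2 difference of −0.91 ± 0.06 (SE). The PLAU values of both groups were known when the genes were chosen, so this is a description without a test. Genes were called at an adjusted p under 0.05 and a fold over 1.5, and 15.3% of the 10593 genes tested were called lower with PKR siRNA 2 than with PKR siRNA 1. All 3 libraries of PKR siRNA 2 were below all 3 of PKR siRNA 1, as was so for 26.1% of genes averaging 1 or more. For EIF2AK2 the log2 difference between the siRNAs was −0.31 ± 0.25, from 26 reads with PKR siRNA 2 and 34 with PKR siRNA 1. With so few reads it is given as a description.

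With DMSO the PLAU libraries stood at 235.1, 185.7 and 212.4 normalized counts. At 400 nM C16 they stood at 623.2, 689.6 and 659.6, and at 800 nM at 600.1, 588.6 and 653.6. Every C16 library was above every DMSO library, whereas the 2 doses overlapped. Of genes averaging 1 or more, 18.1% lay wholly above DMSO at 400 nM and 22.2% at 800 nM. The means were 211.1 ± 24.7 with DMSO, 657.5 ± 33.2 at 400 nM and 614.1 ± 34.7 at 800 nM (SD, n = 3), or 3.12-fold and 2.91-fold the DMSO level. Between the doses the log2 difference was −0.10, again a description without a test. Of the 9963 genes tested, 5.09% were called in either direction between the doses.

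PRSS23, on the plus strand of chromosome 11 (hg38, 86791059 to 86952903, 8 merged exons), was lower with both siRNAs. Its control libraries stood at 1813, 1799 and 1867 normalized counts, against 866 (replicate 1), 918 (replicate 2) and 986 (replicate 3) with PKR siRNA 1 and 799.7, 769.9 and 814.4 for PKR siRNA 2. Both siRNA groups lay below all control libraries, as 23.1% and 24.2% of genes averaging 1 or more did with PKR siRNA 1 and 2. The means of 1826 ± 35.4, 923.5 ± 60.0 and 794.7 ± 22.7 (SD, n = 3) gave log2 fold changes of −0.98 ± 0.05 (SE) for PKR siRNA 1 and −1.20 ± 0.05 for PKR siRNA 2 (limma, Benjamini-Hochberg adjusted p = 4.401e-28 and 1.217e-33). PRSS23 was thus called lower in both comparisons, beside 12.6% and 12.8% of the 10593 genes tested. It was the only member other than PLAU that reached the minimum mean of 10 normalized counts needed for the test.

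Between the siRNAs PRSS23 differed by less than 1.5-fold and PLAU by more, and the difference between the genes was not tested. PLAU was lower with PKR siRNA 2 than with PKR siRNA 1 by the log2 difference of −0.91 given above, while PRSS23 differed by −0.21 (95% interval −0.32 to −0.11, limma adjusted p = 0.0002809), which is under the 1.5-fold threshold. The ratio of PLAU to PRSS23 per kilobase within a library was 2.67 to 3.09 in the controls, 2.91 to 2.95 with PKR siRNA 1 and 1.73 to 1.86 with PKR siRNA 2. Such a ratio does not depend on how libraries were scaled to each other, and it was not tested.

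With C16, PRSS23 was higher by less than the fold threshold. The DMSO libraries stood at 506.2, 476.2 and 484.3 normalized counts, those at 400 nM at 597.7, 659.6 and 686.2, and those at 800 nM at 638.5, 659.3 and 643.1. All C16 libraries were above all DMSO libraries, and the doses overlapped. Of genes averaging 1 or more, 18.1% lay wholly above DMSO at 400 nM and 22.2% at 800 nM. The means were 488.9 ± 15.5, 647.8 ± 45.4 and 647.0 ± 10.9 (SD, n = 3), and both doses were 1.32-fold the DMSO level (limma, adjusted p = 5.214e-06 at 400 nM and 2.083e-06 at 800 nM). PRSS23 was not called, since 1.5-fold was not reached. The log2 difference between the doses was 0.00 with a 95% interval of −0.14 to 0.14 (adjusted p = 0.9995). The PLAU to PRSS23 ratio per kilobase went from 1.66 to 1.97 with DMSO to 4.09 to 4.44 at 400 nM and 3.79 to 4.32 at 800 nM.

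**Figure D1:**
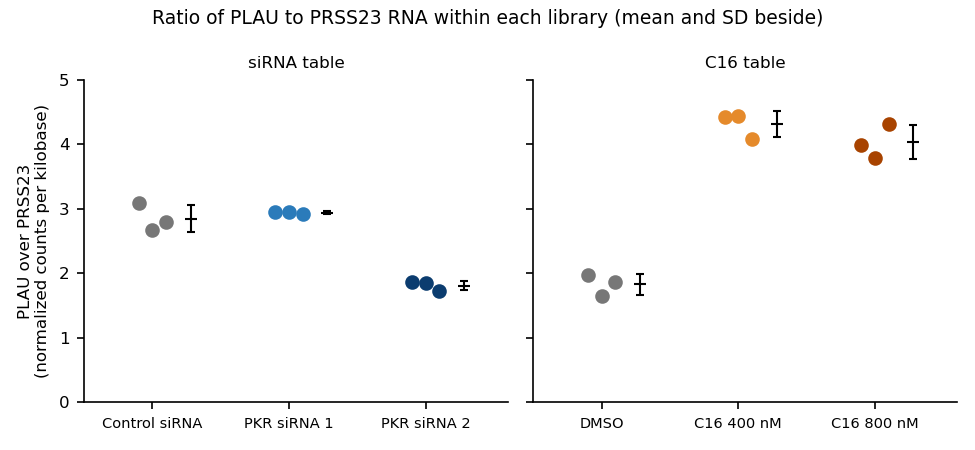
Ratio of PLAU to PRSS23, each as normalized counts per kilobase, within every library (points), with the mean and SD of 3 libraries beside them. The group means stood at 2.85 for the controls, 2.94 for PKR siRNA 1 and 1.81 for PKR siRNA 2, against 1.83 for DMSO, 4.32 at 400 nM and 4.04 at 800 nM in the C16 libraries.

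Both genes share exon sequence with a neighbour on the opposite strand. Of the exon bases of PLAU, 770 (28.6%) lie on C10orf55, and of those of PRSS23, 1399 (12.2%) lie on FZD4. C10orf55 averaged 4.21 normalized counts over the siRNA libraries and 3.51 over the C16 libraries, and FZD4 averaged 51.4 and 18.8. The library kit kept strand, but whether the counting used it was not given in the sources used here, so reads of the opposite gene cannot be set apart from those of PLAU and PRSS23.

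PLAUR, on the minus strand of chromosome 19 (hg38, 43646095 to 43670346), was a low-count gene with 69 reads in all siRNA libraries and 63 in all C16 libraries. Its control siRNA libraries stood at 13.3, 8.59 and 13.3 normalized counts, against 6.66, 2.72 and 9.65 with PKR siRNA 1 and 4.97, 6.43 and 3.76 for PKR siRNA 2. PKR siRNA 2 lay below all controls, as was so for 24.2% of genes averaging 1 or more, whereas PKR siRNA 1 overlapped the controls. The ratio of summed reads, scaled for depth, was 0.529 with PKR siRNA 1 (19 against 35 reads, exact 95% interval 0.286 to 0.950) and 0.423 with PKR siRNA 2 (15 reads, 0.214 to 0.794). Exact two-sided permutation tests of the libraries gave p = 0.2 and p = 0.1, the latter being the smallest that 3 against 3 libraries allow.

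In the C16 table the PLAUR libraries stood at 3.89, 3.81 and 2.28 normalized counts with DMSO, 5.32, 10.4 and 9.57 at 400 nM, and 10.1, 13.4 and 7.63 at 800 nM. Every C16 library was above every DMSO library. The same held for 18.1% of genes averaging 1 or more at 400 nM and 22.2% at 800 nM. The ratio of summed reads to DMSO was 2.58 at 400 nM (23 against 11 reads, exact 95% interval 1.21 to 5.87) and 3.13 at 800 nM (29 reads, 1.52 to 6.94), with an exact permutation p = 0.1 at each dose. The ratio of PLAU to PLAUR per kilobase overlapped between all groups of a table except control siRNA and PKR siRNA 2, where it was 69.2 to 98.3 and 38.9 to 65.8.

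SERPINE2 and PLAT gave at most 11 and 4 reads in a library. SERPINE2 encodes an inhibitor of urokinase, tissue plasminogen activator and thrombin that acts at the cell surface. With siRNA, SERPINE2 had 5, 14 and 11 reads over the libraries of the control, the first and the second PKR siRNA, and PLAT had 3, 2 and 7. Neither gene separated a siRNA group from the control. The reads of SERPINE2 were 1, 0 and 2 with DMSO, 3, 6 and 4 at 400 nM, and 9, 4 and 11 at 800 nM. PLAT had 0 reads in each DMSO library, then 2, 1 and 2 at 400 nM and 3, 3 and 2 at 800 nM.

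Both genes were thus above all DMSO libraries at both doses on the normalized scale. So were 18.1% of genes averaging 1 or more at 400 nM and 22.2% at 800 nM. The depth-scaled ratio for SERPINE2 was 5.35 (exact 95% interval 1.47 to 29.3) at 400 nM and 9.49 (2.88 to 49.2) at 800 nM. The depth-scaled PLAT reads were 2.06 times the limit of 3 reads over the DMSO group at 400 nM and 3.16 times at 800 nM. The counting error of the few PLAT reads with C16 is not in these ratios, so they are no lower bounds. Exact permutation tests again gave p = 0.1, the smallest possible, for each gene and dose. Nearly all their reads in this table came from the C16 groups, so the separation from DMSO is given as a description. Between the doses PLAUR, SERPINE2 and PLAT all overlapped.

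None of PLAUR, SERPINE2 and PLAT reached the minimum mean for the main test, and the calls for them depended on how low counts were handled. When limma was run with no minimum, the adjusted p at 400 nM was 0.1035 for PLAUR, 0.01966 for SERPINE2 and 0.02867 for PLAT, and at 800 nM it was 0.01766, 0.0003601 and 0.00133. On the recovered reads with no minimum, edgeR's quasi-likelihood test gave 0.05513, 0.0317 and 0.08238 at 400 nM and 0.004602, 6.776e-05 and 0.01144 at 800 nM. For PLAUR with PKR siRNA 2 these tests gave adjusted p = 0.07105 and 0.0175. PLAT had 0 reads with DMSO, and SERPINE2 had 3 there of 40 over the C16 libraries. Both thus entered the tests of C16 through the groups where they were high. Their adjusted p-values with C16 are a description and support nothing.

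**Figure D2:**
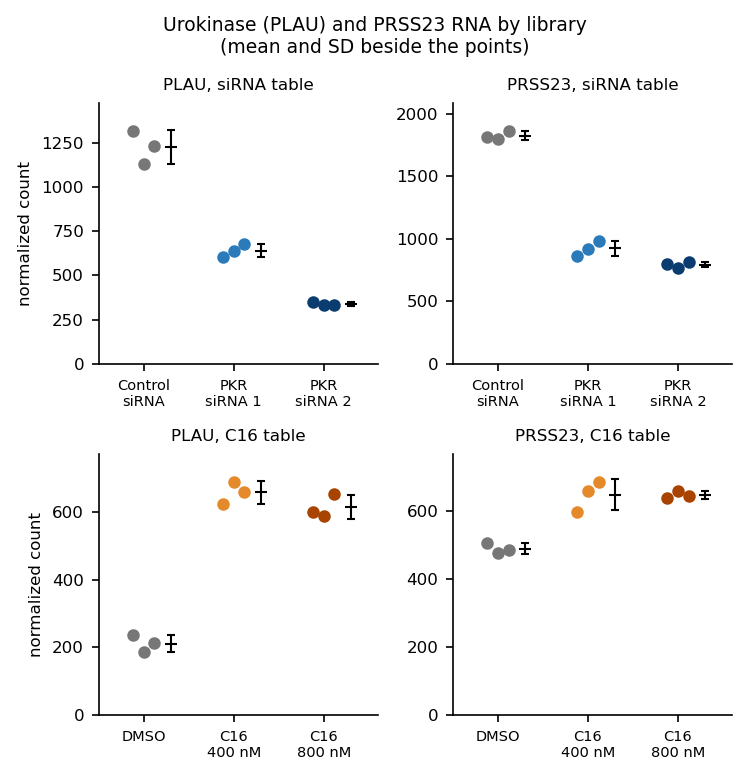
Normalized counts of PLAU and PRSS23 in each library (points), with the mean and SD of the 3 libraries of a group beside them. The siRNA table is above and the C16 table below, and the vertical scales differ between panels. PLAU and PRSS23 were lower in all PKR siRNA libraries and higher in all C16 libraries than in their controls. Of genes averaging 1 or more, 23.1% and 24.2% lay wholly below control with PKR siRNA 1 and 2. Wholly above DMSO lay 18.1% at 400 nM and 22.2% at 800 nM.

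**Figure D3:**
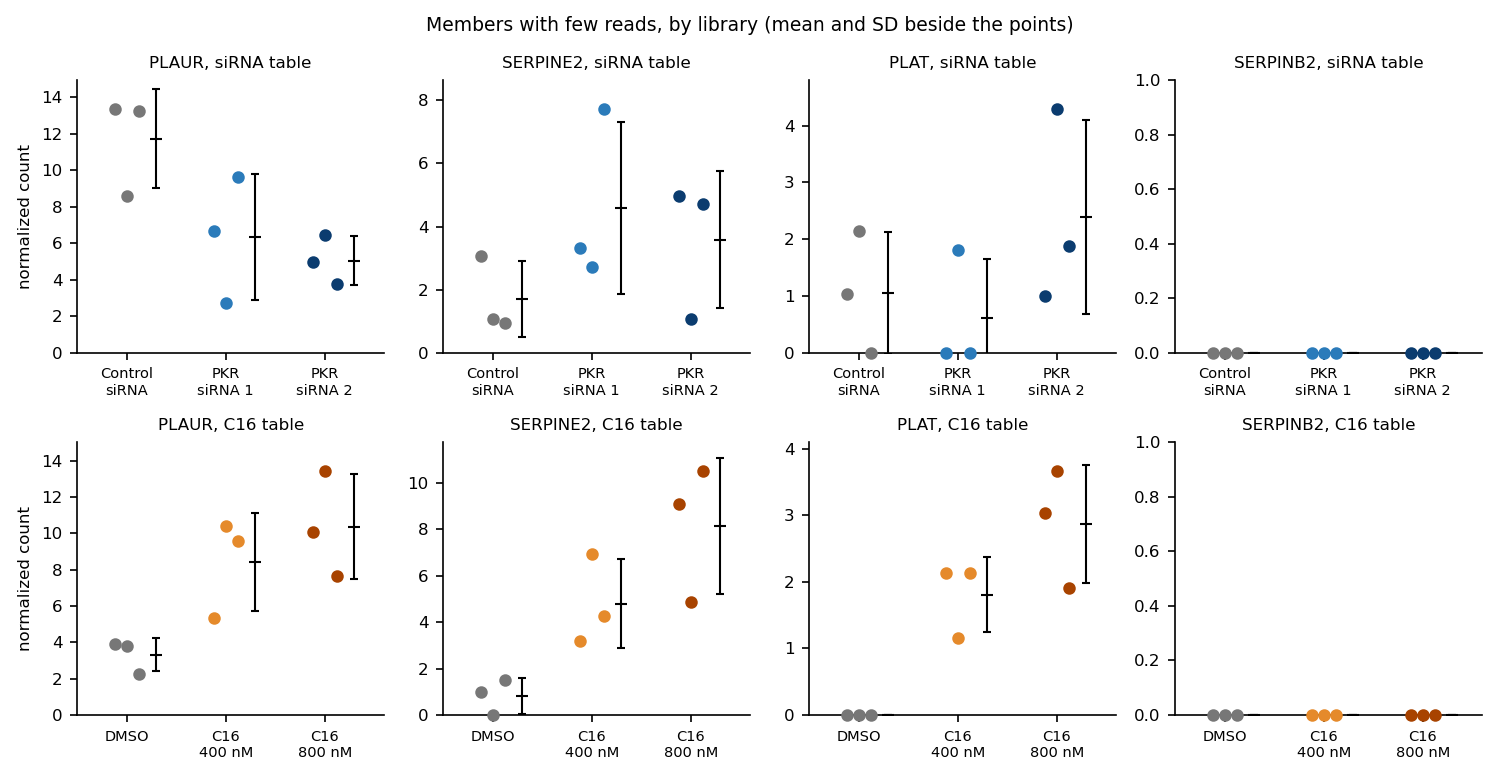
Normalized counts of the low-count members in each library (points), with the mean and SD beside them. PLAUR lay between 2.28 and 13.4 in all libraries, and PLAUR, SERPINE2 and PLAT were above all DMSO libraries at both doses of C16. Of genes averaging 1 or more, 18.1% lay wholly above DMSO at 400 nM and 22.2% at 800 nM.

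Genes of and around the system were described with 7 lists holding 119 genes, of which 59 were tested in each table. The 14 AP-1 and ETS factors and the 25 other PRSS and SERPIN genes were listed around the system, not as parts of it. With PKR siRNA 1, 4 of the 59 were called higher and 18 lower, a called share of 37.3% beside 21.1% of all genes tested (8.53% higher and 12.6% lower). With PKR siRNA 2, 10 were called higher and 23 lower, 55.9% beside 23.5% (10.8% and 12.8%). At 400 nM C16, 18 were called higher and 2 lower, 33.9% beside 12.5% (7.08% and 5.45%). At 800 nM 17 were higher and 10 lower, 45.8% beside 25.7% (11.6% and 14.1%). Without DMSO replicate 2 or replicate 3 of 400 nM, the 2 lower at that dose became 1. Of these calls, 2 of the lower ones for each siRNA, 2 of the higher ones at 400 nM and 3 at 800 nM belong to genes that reached the minimum mean of 10 only through the groups where they were high (ETV4, SPINT1, VLDLR and PRSS22). Their values in those comparisons are given as a description and support nothing. The lists were written with earlier results of these data known, and they were not tested as sets.

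Plasminogen itself and most enzymes that cleave it or activate its activators were not expressed enough to be tested, and 5 of 13 were. TMPRSS2, a membrane-bound serine protease, had 30.9 normalized counts with control siRNA, fell to 3.61 with PKR siRNA 1 (log2 fold change −2.79 ± 0.26 SE) and rose to 57.9 with PKR siRNA 2 (0.88 ± 0.26). It fell from 56.8 with DMSO to 18.6 at 400 nM (−1.54 ± 0.24) and 14.9 at 800 nM (−1.84 ± 0.24). CTSD, the lysosomal protease cathepsin D, rose with PKR siRNA 2 (0.94 ± 0.04) and fell at 800 nM (−0.82 ± 0.06). F12, coagulation factor XII, fell with PKR siRNA 2 (−1.06 ± 0.21), and these were all the calls of the list in the comparisons with a control.

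Of 16 genes listed under proteins that bind plasminogen or urokinase at the cell surface, 12 were tested. The list was broad, also holding CDCP1, which serine proteases cut, and integrin subunits, and binding was not measured. With PKR siRNA 1, 0 were called higher and 3 lower. PKR siRNA 2 gave 2 higher and 4 lower, 400 nM C16 gave 3 higher and 1 lower, and 800 nM gave 2 higher and 3 lower. In that order the called shares were 25%, 50%, 33.3% and 41.7%, beside 21.1%, 23.5%, 12.5% and 25.7% of all genes tested. Leaving out 1 library moved some of these counts. The 0 higher with PKR siRNA 1 became 1 without replicate 1 of the controls or without replicate 1 or 2 of that siRNA, and the 1 lower at 400 nM became 0 without DMSO replicate 2 or replicate 3 of 400 nM and 2 without replicate 1 of 800 nM. CDCP1, a surface glycoprotein cut by serine proteases, fell from 507.2 to 121.1 normalized counts with PKR siRNA 2 (−2.06 ± 0.08) and rose from 65.4 with DMSO to 265.6 at 400 nM (2.02 ± 0.11) and 274.1 at 800 nM (2.05 ± 0.11). ITGA5, a subunit of the fibronectin receptor, fell with PKR siRNA 2 (−0.81 ± 0.06) and rose at 400 nM (1.08 ± 0.08) and 800 nM (0.94 ± 0.08). With PKR siRNA 1 both genes were lower by less than 1.5-fold, at −0.55 and −0.40. ITGB3, a subunit of the vitronectin receptor, moved the other way, rising with PKR siRNA 2 (1.37 ± 0.23) and falling at 800 nM (−1.74 ± 0.32).

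The list of clearance receptors, which take up complexes of activator and inhibitor or related ligands, held 10 genes. It included LRPAP1, a protein that binds such receptors and is not one itself. Of the 10 genes, 7 could be tested with siRNA and 8 with C16. The siRNAs called 0 higher, with 2 lower for PKR siRNA 1 and 3 lower for PKR siRNA 2, whereas C16 called 3 higher and 0 lower at 400 nM and 4 higher and 2 lower at 800 nM. Called shares were thus 28.6%, 42.9%, 37.5% and 75%, beside 21.1%, 23.5%, 12.5% and 25.7% of all genes tested. The shares with C16 include VLDLR, whose values below are only a description. Without replicate 3 of PKR siRNA 1 the 2 lower became 1. SORL1, a sorting receptor of this family, fell from 560.6 normalized counts to 78.6 with PKR siRNA 1 (−2.82 ± 0.10) and to 113.8 with PKR siRNA 2 (−2.29 ± 0.10). It rose from 127.4 with DMSO to 237.0 at 400 nM (0.89 ± 0.10) and 212.6 at 800 nM (0.74 ± 0.10). LRP1, the main receptor for urokinase complexes, fell with PKR siRNA 1 (−0.75 ± 0.24) and at 800 nM (−1.22 ± 0.16). VLDLR, the very low density lipoprotein receptor, reached the minimum only through the C16 groups and stood at 6.01 with DMSO, 13.9 at 400 nM and 17.4 at 800 nM (differences of 1.10 ± 0.33 and 1.38 ± 0.33 on the log2 scale).

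Of 21 other inhibitors of the system, 7 could be tested with siRNA and 8 with C16. SPINT1, the inhibitor HAI-1 of membrane serine proteases, reached the minimum only through the control siRNA group, with 36.4 normalized counts there, 3.29 with PKR siRNA 1 (log2 difference −3.36 ± 0.40) and 5.01 with PKR siRNA 2 (−2.63 ± 0.40). At 400 and 800 nM C16 its differences of 0.57 and 0.61 were not called. TIMP1, an inhibitor of matrix metalloproteinases, fell with PKR siRNA 2 (−1.76 ± 0.12) and rose at 400 nM (0.65 ± 0.16). Each siRNA called 3 of the 7 lower and 0 higher. C16 called 3 of the 8 higher at 400 nM, and 1 higher and 1 lower at 800 nM. The called share was 42.9% with each siRNA, beside 21.1% and 23.5% of all genes tested. That share includes SPINT1, whose siRNA values are only a description. With C16 the called share was 37.5% at 400 nM beside 12.5%, and 25% at 800 nM beside 25.7%.

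The proteases, matrix proteins and receptors on which urokinase or plasmin acts were called in the largest share of the 7 lists with both siRNAs. Of 10 tested, 1 rose and 7 fell with PKR siRNA 1 (median log2 fold change −0.84) and 2 rose and 6 fell with PKR siRNA 2 (median −1.03), while the median over all genes was −0.01 in both. Of 9 tested with C16, 4 rose and 0 fell at each dose (medians 0.38 and 0.46, beside 0.00 over all genes). The called share was 80% with each siRNA, beside 21.1% and 23.5% of all genes tested. It was 44.4% at each dose, beside 12.5% at 400 nM and 25.7% at 800 nM. MMP1, the interstitial collagenase, fell with PKR siRNA 1 (−1.91 ± 0.27) and PKR siRNA 2 (−2.45 ± 0.27) and was under the minimum in the C16 table. F2R, the thrombin receptor PAR1, fell with both siRNAs (−0.70 ± 0.13 and −2.21 ± 0.13), and its differences of 0.38 and 0.46 with C16 were under 1.5-fold. Without DMSO replicate 2 or replicate 2 of 800 nM, 1 of the 9 was called lower at 800 nM. LTBP1, which encodes a binding protein of latent TGF-β, fell with both siRNAs (−0.88 ± 0.11 and −1.31 ± 0.11) and rose at both doses (1.32 ± 0.15 and 1.44 ± 0.15). F2RL1, the protease-activated receptor PAR2, did the same, with −1.80 ± 0.09 and −0.74 ± 0.09 for the siRNAs and 1.40 ± 0.10 and 1.71 ± 0.10 for the doses. THBS1, which encodes thrombospondin-1, an activator of latent TGF-β, was called higher in all 4 comparisons with a control.

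AP-1 and ETS proteins are transcription factors known to act on the PLAU gene, and 12 of 14 were tested. ETV4, an ETS factor, reached the minimum in each table only through the groups where it was high. Its mean in normalized counts was 42.6 in the controls, 12.5 for the first siRNA and 4.91 for the second (log2 differences of −1.69 ± 0.31 and −2.95 ± 0.31). With DMSO it stood at 8.13, at 400 nM at 15.0 and at 800 nM at 18.5 (1.10 ± 0.32 at the higher dose). ETV5, of the same subfamily, fell with PKR siRNA 2 (−2.15 ± 0.13). ATF3, a stress-induced partner of AP-1, rose in all 4 comparisons with a control, by 1.32 ± 0.21, 1.21 ± 0.21, 1.95 ± 0.18 and 1.90 ± 0.18 for the siRNAs 1 and 2 and for 400 and 800 nM. FOSL1 rose with PKR siRNA 1 and at both doses but fell with PKR siRNA 2. In all, the factors called higher and lower were 3 and 1 with the first siRNA, 2 and 5 with the second, 4 and 0 at 400 nM, and 5 and 1 at 800 nM. As shares these were 33.3%, 58.3%, 33.3% and 50%, beside 21.1%, 23.5%, 12.5% and 25.7% of all genes tested. ETV4, whose values are only a description, was the 1 lower with the first siRNA. It was also among the 5 lower with the second and the 5 higher at 800 nM. The 2 higher with the second siRNA became 1 without replicate 2 of the controls, and the 1 lower at 800 nM became 2 without DMSO replicate 1.

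Among 25 other genes of the PRSS and SERPIN families, 6 could be tested with siRNA and 5 with C16. With PKR siRNA 1, 0 were called higher and 1 lower, 16.7% beside 21.1% of all genes. PKR siRNA 2 gave 2 higher and 1 lower, 400 nM gave 1 higher and 0 lower, and 800 nM gave 1 in each direction. These were 50%, 20% and 40%, beside 23.5%, 12.5% and 25.7% of all genes. The 1 higher at each dose was PRSS22, which reached the minimum only through the C16 groups, and these C16 shares include it. The 0 higher became 1 without replicate 1 of PKR siRNA 1, and the 2 higher became 1 without replicate 3 of the controls. PRSS22, a serine protease able to activate pro-urokinase, fell from 89.7 normalized counts to 22.4 with PKR siRNA 1 (−1.98 ± 0.20) and to 21.4 with PKR siRNA 2 (−2.04 ± 0.20). In the C16 table it reached the minimum only through the C16 groups, with 4.42 for DMSO and 17.7 at each dose (log2 differences of 1.81 ± 0.34). SERPINH1, a collagen chaperone without inhibitor activity, rose with PKR siRNA 2 (1.01 ± 0.09), as did SERPINB9, an inhibitor of granzyme B, from 18.0 to 31.1 normalized counts (0.76 ± 0.25). SERPINB1, an inhibitor of neutrophil proteases, fell at 800 nM (−0.79 ± 0.19). All changes called in these lists rest on limma with Benjamini-Hochberg adjusted p-values over all genes tested, the highest among those given with a fold change being 0.008807, for SERPINB9 with PKR siRNA 2, apart from VLDLR.

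**Figure D4:**
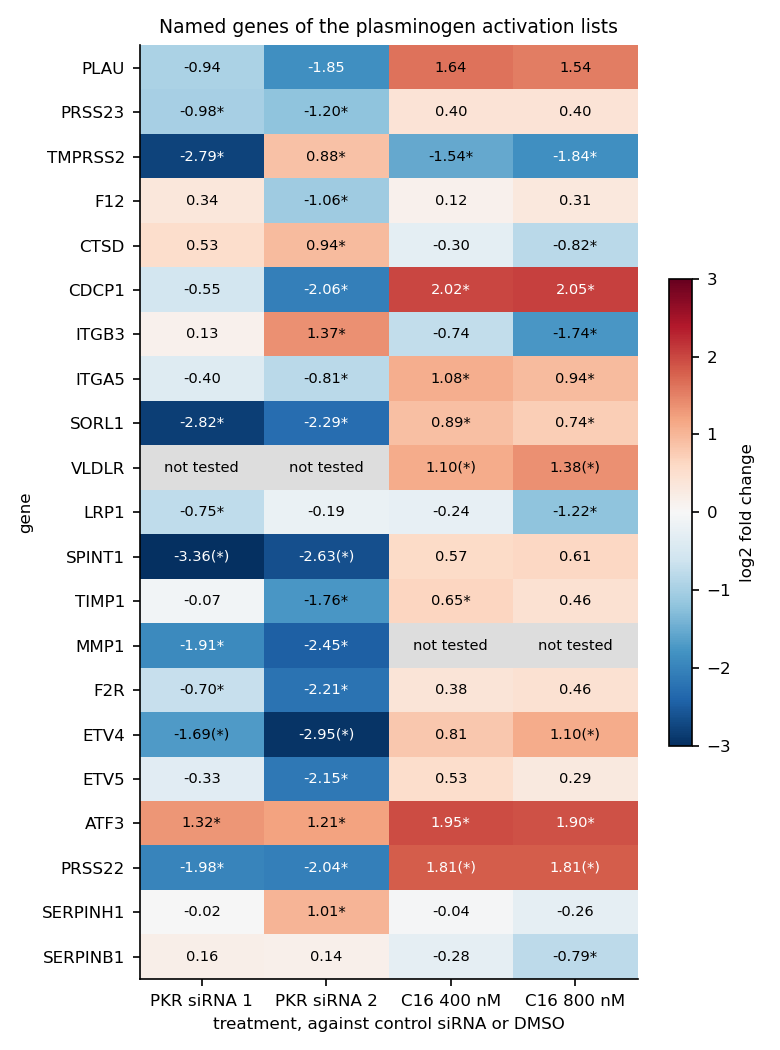
Log2 fold change against the control of the same table for the tested members and the named genes of the 7 lists (rows) in 4 comparisons (columns), blue for lower and red for higher. A star marks genes called at an adjusted p under 0.05 and a fold over 1.5, a star in brackets marks calls of genes that reached the minimum mean only through the groups where they were high, PLAU carries none because its values chose the genes, and cells of genes under the minimum mean read "not tested". SORL1 was called lower with both siRNAs and higher at both C16 doses.

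Between 800 and 400 nM C16, 0 of the 59 list genes tested were called higher and 4 lower (ITGB3, LRP1, MRC2 and JUND), beside 1.13% and 3.95% of all genes. Between PKR siRNA 2 and PKR siRNA 1, 10 were called higher and 14 lower, beside 31.7% of all genes (16.4% and 15.3%). The genes lower with PKR siRNA 2 included CDCP1, F2R and ETV5, and the genes higher with it included TMPRSS2, ITGB3 and SERPINH1.

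The genes whose pattern was most like that of PLAU were found by Pearson's r of log2 (normalized count + 1) over the 18 libraries, each centred on the mean of its table, among 5275 other genes that averaged 50 or more in both tables. These were AKAP12, a scaffold protein of protein kinase A (r = 0.979), ITGA5 (0.976), EIF6, a ribosome biogenesis and translation factor (0.970), CD59, an inhibitor of the complement attack complex (0.967), and CDCP1 (0.967). PRSS23 stood at rank 92 (r = 0.863). The points share libraries, controls and scaling factors within a table, and r is given as a description. AKAP12 had mean levels of 6368, 3054 and 1701 normalized counts in the control siRNA group and with the PKR siRNAs 1 and 2, and 748.2, 1775 and 1663 with DMSO, 400 nM and 800 nM C16.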

How the data were processed

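RNA of PANC-1 cells was sequenced as paired ends on a MiSeq from poly(A) libraries made with a directional kit. Per the labels and the study's methods, the authors mapped reads to hg38 with TopHat, used featureCounts to count them per gene, and scaled the counts by TMM in TCC. What was deposited is a signal, the read count of a gene over a factor of its library, in 1 table for the siRNA run and 1 for the C16 run. Tool versions, the annotation and the strand setting of the counting were not given in the sources used here. With TMM a value is relative to the bulk of the genes of its library. All columns matched a sample (0 left over). Within a tolerance of 0.001, 100% of values were whole multiples of what 1 read is worth, and the reads were recovered from them. Replicates of a group differed by more than sampling noise in 18 of 18 pairs, so none were merged.

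Two-sided tests used limma 3.58.1 (trended eBayes) in R 4.3.3 on log2 (normalized count + 1). Each table was fitted whole, with its 9 libraries, over the genes that averaged 10 or more. Benjamini-Hochberg adjustment was made over all genes tested, and genes with an adjusted p under 0.05 and a fold over 1.5 were called. Genes under the minimum were given by their reads, with exact conditional 95% intervals and exact permutation tests. Depth ranged from 894145 to 1873906 reads on genes, which leaves low genes imprecise. The fit was tested on simulated data.

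The text names all 6 members, EIF2AK2, the 3 genes of each list with the largest called change against a control, and the 5 genes most like PLAU. Other list genes named with a count (THBS1, LTBP1, F2RL1, FOSL1, SERPINB9, MRC2 and JUND) were chosen after their values were seen. Some list genes that this rule picked are not reported here, while the counts and medians cover whole lists. The members and lists were chosen with earlier results of these data known, and the lists were written from memory. As alternatives, the pseudocount was set to 0.5 or 5, the minimum was dropped or raised to 30, values were rescaled by median of ratios, the third group was left out of the fit, the replicate number was a block, and libraries were left out singly. The recovered reads were also tested with DESeq2 1.42.0 and the quasi-likelihood test of edgeR 4.0.16. The edgeR test with no minimum was added after seeing the data.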

Additional observations from a re-analysis of the deposited data

How the results depend on the processing

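In the comparisons with a control, PLAU and PRSS23 kept their direction and PRSS23 its side of the thresholds under every alternative run. Between 800 and 400 nM C16 the log2 difference of PRSS23, close to 0, changed sign to −0.00247 with edgeR and no minimum, to −0.05651 without replicate 1 of 400 nM and to −0.01336 without replicate 2 of 800 nM (range −0.05651 to 0.04294 over the libraries left out in turn). The number of members called depended on the minimum, since PLAUR, SERPINE2 and PLAT were tested only without it. At 400 nM, 0 members beside PLAU were called higher, against 2 with limma and no minimum and 1 with edgeR and no minimum. Of all 17683 genes in those fits, 754 and 772 were called higher. At 800 nM the count went from 0 to 3 with each of these, beside 1315 and 1356 of all genes. SERPINE2 and PLAT had nearly all these reads with C16, so their part in these counts supports nothing. With PKR siRNA 2 the members called lower went from 1 to 2 with edgeR and no minimum, beside 1538 of all 18230 genes. Over the 7 lists, the genes called higher with PKR siRNA 1 went from 4 to 7 with edgeR and no minimum, beside 1016 of all 18230 genes. Those called lower at 400 nM went from 2 to 1 without DMSO replicate 2 and to 1 without replicate 3 of 400 nM. The range over all libraries left out was 1 to 3. The other 194 and 178 counts of members and of the 7 lists together, under the alternatives and with libraries left out, stayed within 1.5 times. Of the counts of single lists, 27 of 560 and 13 of 504 moved by more than that.

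Over all genes, a minimum of 30 moved the genes called lower from 543 to 296 at 400 nM, from 1403 to 800 at 800 nM and from 394 to 231 between the doses, where DESeq2 gave 51 higher and 137 lower against 113 and 394. Fewer genes were tested under that minimum, and the cause of the DESeq2 difference was not tested. Samples with the same replicate number did not deviate together, with every correlation of their deviations at or under 0.1, so the numbers were not taken as pairs. A fit with the replicate block could change only the errors. The log2 fold changes could not move, since each replicate number stood once in every group. That fit called 905 genes higher and 1332 lower with PKR siRNA 1, against 904 and 1331. It changed no call of a member. Depth limits what can be said of PLAUR, SERPINE2, PLAT and SERPINB2, and the C16 libraries were the shallower ones.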
